A study of Mus musculus with 3 samples.

Results

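Peaks of DNase I cutting that lie in intergenic sequence far from any protein-coding gene were examined in MEL cells, a mouse erythroleukaemia line of transformed red cell precursors. A peak was counted as far when its midpoint lay outside every protein-coding gene body of the GENCODE annotation (mm10) and over 100 kb from the nearest protein-coding transcript start. In the peak list of biological replicate 2, 8505 of 106591 peaks were far by this rule. Of these, 1534 lay over 500 kb from a coding start and are called gene desert peaks. The remaining 6971 lay between 100 and 500 kb away. A further 312 peaks of the list lay on other contigs and were not classified, so shares below are of 106279 peaks.

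DNase I cuts DNA where nucleosomes have been moved aside, which happens at promoters, enhancers and insulators. Sites far from genes are for the most part enhancers, which act on promoters over long distances by looping, and insulators, where the zinc finger protein CTCF holds the base of chromatin loops. In red cell precursors enhancers are bound by GATA1 together with the E-box protein TAL1 and by NF-E2, and MEL cells, which descend from Friend virus leukaemia, in addition make the ETS factor PU.1 (Spi1).

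The study's samples form 1 group of 3 libraries from the MEL line, which carries no introduced allele in the labels. Every library came from cells kept in zinc dichloride for 24 hours, at a dose of 125 in a unit whose prefix is unreadable in the labels. No untreated library was analysed here, so nothing below bears on what zinc did. Biological replicate 2 is 1 library, and the other 2 libraries are technical replicates of biological replicate 1. The whole-series list of 304049 peaks was read as replicate 1, and the same rule found 34585 far peaks there, of which 7136 were gene desert peaks. The files hold no read counts, so depth is unknown, and in bulk cells a site open in few cells cannot be told apart from one cut weakly in all. The promoters of erythroid genes served as a check of the line. Peaks lay within 1 kb of a start of 4 of 6 such genes in replicate 2 (Gata1 had score 57 and Epor score 59; Slc4a1 and Alas2 had none) and of all 6 in replicate 1. Of 6 markers of T cells, B cells, liver, muscle and neurons, 1 had one in replicate 2 (Cd3e at score 20) and 2 in replicate 1.

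The sequences of 8 far peaks are given as picked examples, not as a typical sample of the far set. They are the peak with the highest score, and the highest-scoring carriers of motifs described below, of all far peaks or of those in gene deserts. Each is 150 bases of the forward strand of mm10, written 5′ to 3′ in lower case, with the named motif match in capitals (read on either strand). The score given with each is the authors' own whole number, at most the 150 bp peak width, whose meaning is not stated, so it ranks peaks only within a list. The peak with the highest score of all far peaks, 99 in replicate 2 and 148 for the peak it overlaps in replicate 1, lies at chr1:106511796-106511945, 195 kb from the start of Phlpp1. It holds none of the 14 motifs searched. The best CTCF carrier lies at chr14:114854716-114854865 (score 70, and 123 in replicate 1), 237 kb from Gpc5, and the best in a gene desert at chr15:50261656-50261805 (score 30, and 94 in replicate 1), 566 kb from Trps1. The best PU.1 carrier lies at chr14:114946476-114946625 (score 89, and 148 in replicate 1), 146 kb from Gpc5 and 526 bp from the start of the long noncoding RNA gene Gm31072. The best in a gene desert lies at chrX:117770436-117770585 (score 51, and 145 in replicate 1), 657 kb from Tgif2lx2. The single NF-E2 carrier shown lies at chr1:108259496-108259645 (score 55, and 137 in replicate 1), 654 kb from Serpinb8. Its AP-1 match lies within the same bases, as the letters searched require of every NF-E2 match. The composite motif called E-box with GATA (CTG, then 8 or 9 bases, then GATAA, which requires only the last 3 letters of an E-box) is shown from its best carrier in a gene desert, at chr15:28856516-28856665 (score 55, and 144 in replicate 1), 653 kb from Dnah5. Its best carrier of all, near Tent5c, had score 56. A RUNX match is shown from chr10:17575456-17575605 (score 50, and 104 in replicate 1), 148 kb from Cited2.
Highest score, near Phlpp1: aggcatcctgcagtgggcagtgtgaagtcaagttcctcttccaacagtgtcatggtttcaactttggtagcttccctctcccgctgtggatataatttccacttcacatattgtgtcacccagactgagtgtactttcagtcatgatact
CTCF, near Gpc5: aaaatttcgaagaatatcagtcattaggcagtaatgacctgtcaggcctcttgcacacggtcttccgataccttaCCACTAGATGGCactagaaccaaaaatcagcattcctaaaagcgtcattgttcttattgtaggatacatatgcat
CTCF, gene desert beside Trps1: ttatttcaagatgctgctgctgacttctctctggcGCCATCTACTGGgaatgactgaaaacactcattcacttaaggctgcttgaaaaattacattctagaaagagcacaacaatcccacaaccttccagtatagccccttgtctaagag
PU.1, near Gpc5: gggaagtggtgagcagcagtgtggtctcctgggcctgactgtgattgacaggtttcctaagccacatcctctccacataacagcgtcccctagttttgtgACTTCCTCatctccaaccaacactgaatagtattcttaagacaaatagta
PU.1, gene desert beside Tgif2lx2: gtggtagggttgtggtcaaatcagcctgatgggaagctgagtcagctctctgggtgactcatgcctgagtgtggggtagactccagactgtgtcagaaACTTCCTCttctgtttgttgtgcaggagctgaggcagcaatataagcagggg
NF-E2, gene desert beside Serpinb8: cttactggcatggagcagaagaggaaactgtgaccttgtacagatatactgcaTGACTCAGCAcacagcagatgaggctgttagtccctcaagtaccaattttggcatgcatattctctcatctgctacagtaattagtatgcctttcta
E-box with GATA, gene desert beside Dnah5: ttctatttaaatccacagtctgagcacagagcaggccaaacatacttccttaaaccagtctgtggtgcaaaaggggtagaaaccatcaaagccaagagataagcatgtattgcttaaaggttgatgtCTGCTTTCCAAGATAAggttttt
RUNX, near Cited2: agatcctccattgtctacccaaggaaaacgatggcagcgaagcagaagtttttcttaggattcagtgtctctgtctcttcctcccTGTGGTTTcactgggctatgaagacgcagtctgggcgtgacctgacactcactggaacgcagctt

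Far intergenic sequence was thinly covered by peaks. It made up 31.5% of the genome (834 Mb without unread bases) and held 8.0% of the peaks of replicate 2 (95% Wilson interval 7.84 to 8.17) and 11.4% of those of replicate 1 (11.3 to 11.5). That is 10.2 peaks per Mb in replicate 2, or 0.254 times the density of the whole genome, and 41.5 per Mb in replicate 1, or 0.362 times. Intergenic sequence 1 to 100 kb from a coding start held 41.2 and 133 peaks per Mb. In gene deserts the densities were 6.21 and 28.9 per Mb. All intervals given here cover counting error alone. Neighbouring peaks are not independent, so for most differences between classes the number of 20 chromosomes (1 to 19 and X) that show the direction is also given.

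Density fell with distance from the nearest coding start in replicate 2 through all 8 bins of distance. It was 502 intergenic peaks per Mb within 1 kb of a start, 27.3 at 50 to 100 kb, 16.1 at 100 to 200 kb, 8.72 at 200 to 500 kb, 6.32 at 500 to 1000 kb and 5.96 beyond 1000 kb. The intervals of the last 2 bins overlap (5.94 to 6.69 and 5.40 to 6.52), so the fall is not resolved beyond 500 kb. In replicate 1 the same bins gave 627, 93.3, 60.8, 36.3, 28.1 and 30.7 per Mb, with the farthest bin a little above the one before it. The 100 kb boundary cut through a gradient: replicate 2 had 740 intergenic peaks at 90 to 100 kb, with median score 24, and 620 at 100 to 110 kb, with median score 25. At the 500 kb boundary there were 227 peaks at 450 to 500 kb (median score 17, 78.4% shared) and 175 at 500 to 550 kb (median score 20, 71.4% shared).

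**Figure D1:**
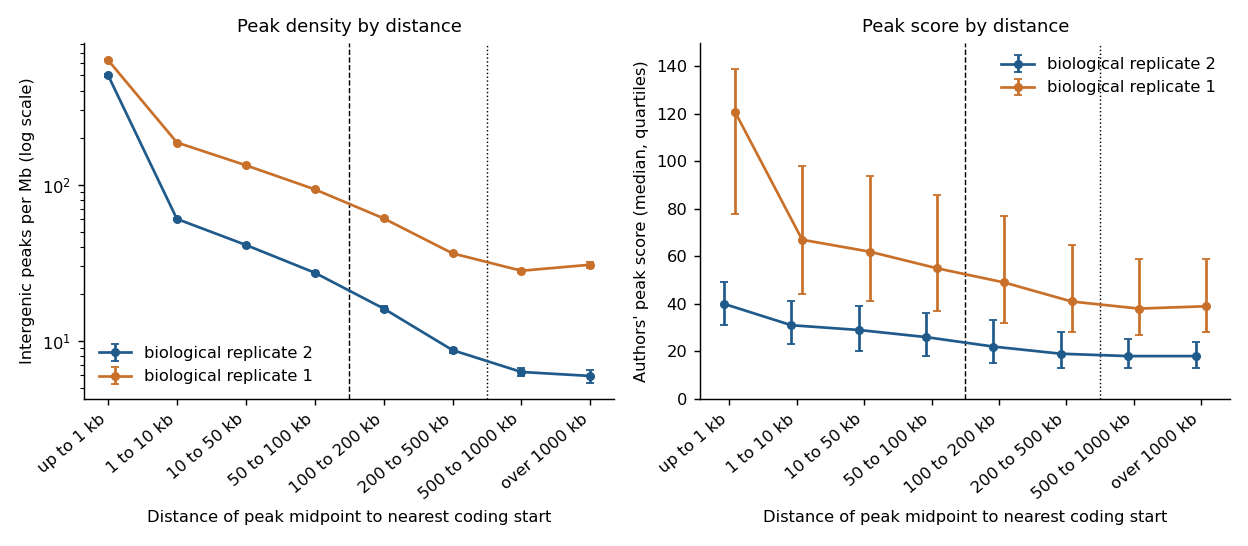
Left, intergenic peaks per Mb of intergenic sequence (log axis, bars are 95% intervals of counting error) and right, the authors' peak score (points are medians, bars the quartiles) against distance to the nearest protein-coding start, for both replicate lists. The dashed line marks 100 kb and the dotted line 500 kb. Replicate 2 falls from 16.1 to 5.96 peaks per Mb across the far bins, and its median score from 22 to 18.

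Far peaks had lower scores than peaks nearer to genes. Their median score in replicate 2 was 20 (quartiles 14 and 29, highest 99), against 29 for intergenic peaks within 100 kb and 30 for all peaks, and it was lower than that of the nearer peaks on 20 of 20 chromosomes. In replicate 1 the medians were 43 for far peaks, 62 for nearer ones and 62 for all, again in that direction on 20 of 20 chromosomes. Gene desert peaks had medians of 18 and 38, below those of the 100 to 500 kb peaks (21 and 45) on 18 and 19 of 20 chromosomes. Hotspots, the broader stretches of enriched cutting that the authors deposited beside the peaks, were narrower around far peaks: median width was 240.0 bp, against 344 bp for the nearer peaks, and 253 against 315 bp in replicate 1. The −log10 q value of a hotspot stops at a ceiling of 100. In replicate 2, 20.6% of far peaks sat in a hotspot at that ceiling, against 25.8% of all peaks of the list and 21.5% of the nearer intergenic ones, an interval of the difference that spans 0 (−1.82 to 0.13 points, 12 of 20 chromosomes). In replicate 1 it was 50% of far peaks, against 60.9% of all peaks and 59.3% of the nearer ones (20 of 20 chromosomes). Within the far set the ceiling share did not follow the score in replicate 2. There it was 24.9% of gene desert peaks, against 19.7% of the 100 to 500 kb peaks (15 of 20 chromosomes). In replicate 1 the order turned, at 47.4% against 50.7% (15 of 20 chromosomes).

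The far peaks of replicate 2 were found again in replicate 1 about as often as other peaks when peaks were matched to peaks. Of 8505 far peaks, 6225 (73.2%, interval 72.2 to 74.1) overlapped a replicate 1 peak by at least 1 bp, where 70.6% of all peaks of the list did. Nearer intergenic peaks did so in 73.6%, and the difference of −0.42 points has an interval of −1.49 to 0.63 (12 of 20 chromosomes). Matched to hotspots instead, 90.2% of far peaks had their midpoint in a replicate 1 hotspot, against 95.3% of nearer peaks, a difference of −5.12 points (−5.81 to −4.46) seen on 20 of 20 chromosomes. Gene desert peaks also ordered differently by these measures. They overlapped a replicate 1 peak in 76.7% of cases, 4.23 points (1.82 to 6.54, 14 of 20 chromosomes) more often than the 100 to 500 kb peaks, and lay in a replicate 1 hotspot in 88.0%, a difference of −2.68 points (−4.53 to −1.0, 13 of 20 chromosomes). Seen from the longer list of replicate 1, 17.5% of its far peaks overlapped a replicate 2 peak, where 23.6% of all its peaks did, and 21.9% of the nearer ones (20 of 20 chromosomes). From that side gene desert peaks were shared less often than the 100 to 500 kb peaks, in 16.6% against 17.7% of cases (difference −1.10 points, −2.06 to −0.11, 12 of 20 chromosomes), so the order of these classes turned with the list.

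Sharing rose with score at the low end of the scale. Among far peaks of replicate 2 with a score of 10 or less, which were 12.5% of the far set, 60.7% overlapped a replicate 1 peak. The share was 73.2% at scores 11 to 20, 76.3% at 21 to 30, 78.2% at 31 to 40 and 75.7% among the 74 peaks above 60. In nearer intergenic peaks scores of 10 or less were 3.42% of the set, and 63.4% of them were shared. Far peaks of replicate 1 spanned a wider range, from 2.69% shared at scores 11 to 20 to 41.8% above 60.

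Far peaks were poorer in G and C than nearer peaks but richer than the sequence around them. Mean GC content was 42.9% (SD 6.97 over peaks) in far peaks of replicate 2, 46.7% in nearer ones, 40% in gene desert peaks, and 40.8% in 16204 peak-free windows of equal width placed 1000 bp from the edges of far peaks. Repeat-masked sequence held the midpoint of 20.6% of far peaks (interval 19.7 to 21.5), against 13.9% of all peaks, 16.6% of nearer intergenic ones and 29.9% of the flanking windows. The difference from nearer peaks, 4.01 points (3.07 to 4.97), had the same direction on 16 of 20 chromosomes. In gene deserts the masked share reached 29.3%, which was 10.67 points (8.26 to 13.17, 18 of 20 chromosomes) above that of the 100 to 500 kb peaks. In replicate 1, 30.3% of far peaks had a masked midpoint, against 22.9% of all its peaks and 31.8% of its flanking windows. The gap from the flanks was thus smaller there. A stretch rich in CpG (GC over 50%, observed over expected CpG over 0.6) was found in 0.999% of far peaks of replicate 2 and 3.53% of nearer ones.

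Few far peaks came from sequence with copies elsewhere. In 2.18% of far peaks of replicate 2, and in 1.15% of nearer ones, over 50% of the 32-base words occur more than once in the genome (15 of 20 chromosomes). No far peak of replicate 2 had all its words repeated, and none held a word of the mitochondrial genome; in replicate 1 the numbers were 2 and 1. In gene deserts 27.4% of peaks held at least 1 repeated word, against 15.3% at 100 to 500 kb (17 of 20 chromosomes). In replicate 1, 5.55% of far peaks were over 50% repeated. The handling of reads with several matches was not stated in the labels or headers.

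CTCF, the insulator protein, and PU.1, an ETS factor of blood cells, had the motifs that most set far peaks apart from the sequence beside them. The CTCF motif was found in 221 far peaks of replicate 2, or 2.60% (interval 2.28 to 2.96), against 2.79% of all peaks and 0.0309% of flanking windows, 84.2 times the flank share. The PU.1 motif, GAGGAAGT on either strand, was found in 553, or 6.50% (6.0 to 7.05), against 4.76% of all peaks and 0.796% of flanks, 8.17 times the flank share. In replicate 1 the CTCF motif was in 1.80% of far peaks, against 2.28% of all peaks and 0.0169% of flanks. PU.1 there was in 10.2% of far peaks, against 8.47% of all peaks and 0.704% of flanks. CTCF matches lay near the middle of far peaks: 61.3% of those in replicate 2 and 75.6% in replicate 1 were centred within 25 bp of the midpoint, where even spacing gives 36.0%. For PU.1 the shares were 39.5% and 53.3%, where even spacing gives 35.0%. A match is a description of the letters in the window and not a bound site.

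Between far and nearer peaks these motifs differed in opposite directions. CTCF was 1.69 points rarer in far than in nearer intergenic peaks of replicate 2 (difference −1.69, interval −2.08 to −1.27, 20 of 20 chromosomes) and rarer still in gene deserts, at 1.83% (13 of 20 chromosomes). In replicate 1 the difference was −1.10 points (19 of 20 chromosomes). By bin of distance in replicate 2, CTCF went from 4.73% at 10 to 50 kb to 2.95% at 100 to 200 kb and 1.61% beyond 1000 kb. PU.1 was 1.06 points more common in far peaks (0.49 to 1.65, 15 of 20 chromosomes), and 1.29 points in replicate 1 (17 of 20 chromosomes). Between gene deserts and the 100 to 500 kb peaks the PU.1 shares were 6.91% and 6.41%, a difference whose interval spans 0 (−0.81 to 1.98, 11 of 20 chromosomes).

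Motifs of red cell factors stood out less from the flanks. AGATAA, the GATA site, was in 12.8% of far peaks of replicate 2, 9.22% of all its peaks and 10.1% of nearer ones. From nearer ones the difference was 2.73 points (1.96 to 3.53, 17 of 20 chromosomes). Flanks held it in 10.9%, so the far share was 1.17 times the flank share, and 1.00 times in replicate 1. These 6 letters are rich in A and T, and far peaks had the lower GC content given above. The part of base composition in that difference was not tested. E-box with GATA, modelled on the composite site of TAL1 and GATA1, was in 1.39% of far peaks, 1.18% of all peaks and 0.950% of flanks. RUNX (TGTGGTTT), the site of a blood progenitor factor, was in 2.20%, 1.68% and 1.27%. NF-E2 was in 16 far peaks (0.188%), near its 0.200% of all peaks. Flanks held it in 0.0926%, and the intervals of the far and flank shares overlap. In replicate 1 NF-E2 was in 110 far peaks, 0.318% (0.264 to 0.383), against 0.371% of all peaks. Flanks there held it in 0.0845% (0.0649 to 0.110), so the far share was 3.76 times the flank share. In replicate 2 AP-1 (TGANTCA) was in 6.0% of far peaks, 4.98% of all peaks and 4.75% of flanks, and C/EBP (TTGCNCAA) in 1.86%, 1.69% and 1.52%.

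Motifs typical of promoters were rarer in far peaks than in all peaks. The ETS site CCGGAAGT was in 8 far peaks of replicate 2 (0.0941%), against 0.321% of nearer intergenic peaks and 0.725% of all peaks, and its share in flanks was 0.0987%. In replicate 1 it was in 0.208% of far peaks (0.165 to 0.262) and 0.0784% of flanks (0.0596 to 0.103), 2.66 times the flank share. NRF1 was in 1 far peak (0.0118%), against 0.134% of all peaks and 0.00617% of flanks. CREB (TGACGTCA) was in 8 (0.0941%), against 0.324% of all peaks and 0.0432% of flanks. For both the intervals of the far and flank shares overlap. The CACCC box CCACACCC, read by KLF factors, was in 0.823% of far peaks, 1.37% of all peaks, 1.43% of nearer ones and 0.876% of flanks. In replicate 1 it was in 1.35% of far peaks, which was 1.77 times its flank share. The metal response element (TGCGCNC or TGCACNC), read by the zinc sensor MTF1, was in 5.77% of far peaks and 9.64% of all peaks. Nearer peaks held it in 8.10% and flanks in 6.35%, so the far share was 0.909 times the flank share. In replicate 1 that ratio was 1.03. The intervals of the far and flank shares overlap in both lists.

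**Figure D2:**
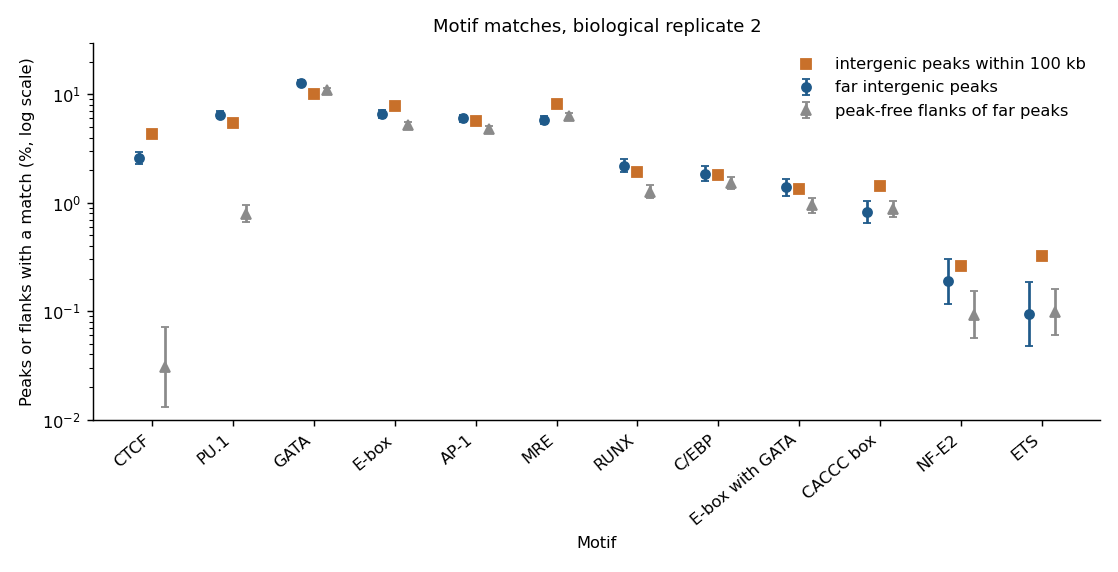
Share of far peaks (circles, bars are 95% Wilson intervals), of intergenic peaks 1 to 100 kb from a coding start (squares) and of peak-free flanks of far peaks (triangles, same bars) with at least 1 match to each motif in replicate 2, on a log axis. CTCF (2.60% against 0.0309%) and PU.1 (6.50% against 0.796%) stand farthest above the flanks; MRE is the metal response element.

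Far peaks with a CTCF or PU.1 match were found again in replicate 1 more often than those without. Of the 221 CTCF carriers, 220 (99.5%, interval 97.5 to 99.9) overlapped a replicate 1 peak, against 72.5% of far peaks without the motif. Of the 553 PU.1 carriers, 508 (91.9%, 89.3 to 93.9) did, against 71.9% without. Carriers had nearly the same scores as the rest, with a median of 21 for each motif and 20 for the far peaks without it. The gap in peak overlap held within bands of score. At scores of 10 or less, all 16 CTCF carriers were shared, against 60.1% of others, and 45 of 54 PU.1 carriers (83.3%), against 59.4%. Above 30 the values were 36 of 36 for CTCF and 113 of 123 (91.9%) for PU.1, against 76.1% and 75.5% of peaks without the motif. Counted by midpoint in a replicate 1 hotspot the gap over all scores was narrower, at 100% with CTCF against 89.9% without, and 97.3% with PU.1 against 89.7%. At scores of 10 or less it was 100% against 62.4% for CTCF and 87.0% against 61.6% for PU.1. Above a score of 30 it was 100% for carriers of either motif, against 99.0% without CTCF and 98.9% without PU.1. By peak overlap the gap was as wide in nearer intergenic peaks, at 26.86 points for CTCF and 20.24 for PU.1 against 27.06 and 19.97 in far peaks.

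Other motifs differed in this respect. Far peaks with GATA were shared in 73.8% of cases, against 73.1% without (difference 0.68 points, −2.20 to 3.40), and those with AP-1 in 72.7% against 73.2% (−4.61 to 3.34). RUNX carriers were shared in 84.5% and E-box with GATA carriers in 84.7%, which was 11.55 points (5.60 to 16.14) and 11.72 points (4.09 to 17.18) above peaks without them. Within bands of score these gaps did not hold throughout. For RUNX the difference was 19.59 points (12.02 to 23.85) at scores 11 to 20 and −1.88 points (−15.97 to 8.56) at 21 to 30, and for E-box with GATA the interval lay above 0 only at scores above 30 (2.88 to 22.32). Counted from replicate 1, 41.1% of its far peaks with CTCF and 17.0% of those without overlapped a replicate 2 peak. There CTCF carriers had higher scores (median 59 against 43), and the gap lay above a score of 30 (47.6% against 22.5%); at scores 21 to 30 the shares were 2.94% and 3.00%, and at 11 to 20 they were 0 of 19 and 2.72%. With PU.1 it was 18.3% against 17.4%, a difference of 0.95 points with an interval of −0.36 to 2.33. At low scores the PU.1 order turned there. At scores 11 to 20, 0 of 140 carriers and 2.88% of others were shared (−3.69 to −0.13 points). At 21 to 30 the shares were 1.13% and 3.21% (−2.80 to −0.92), and above 30 the interval spans 0 (−0.72 to 2.69). Higher sharing with PU.1 was thus seen from the short list, and from the long list the interval over all scores spans 0.

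**Figure D3:**
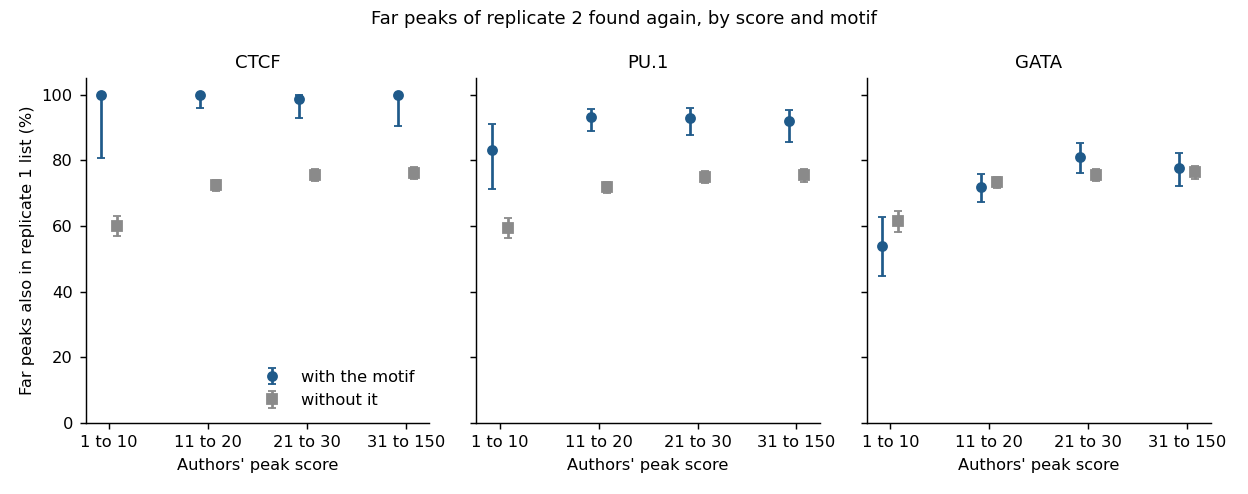
Share of far peaks of replicate 2 that overlap a replicate 1 peak (vertical axis, percent, bars are 95% Wilson intervals), by band of the authors' score (horizontal axis), with and without a CTCF, PU.1 or GATA match. CTCF carriers lie at 98.7% or above in every band and PU.1 carriers at 83.3% or above, while GATA carriers differ from the other peaks by −7.47 to 5.46 points, with an interval above 0 at scores 21 to 30 alone (0.16 to 10.04).

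Far peaks had another peak close by less often than peaks nearer to genes. The median distance from a far peak of replicate 2 to the nearest peak of its list was 460.0 bp, and 57.5% had one within 1 kb, against 380.0 bp and 67.4% for nearer intergenic peaks. In replicate 1 the values were 1660.0 bp and 42.7% for far peaks, and 800.0 bp and 55.2% for nearer ones. No other peak lay within 100 kb of 6.51% of far peaks in replicate 2 (0.863% of nearer ones) and 1.20% in replicate 1 (0.118%). Some peaks of a list overlap each other. In replicate 2, 17.2% of far peaks had a neighbour with its midpoint under 150 bp away, and merging overlaps left 7737 sites. At 4 positions the deposited list held the same far peak a second time with an equal score. Chained within 12.5 kb, the far peaks formed 1883 clusters and 2639 singles, and 276 clusters with at least 5 peaks held 22.6% of all far peaks. The largest, with 19 peaks each, lay on chromosome 10 (66899436 to 66933005, 123 kb from Reep3, 13 peaks shared) and chromosome 17 (47194536 to 47226065, 153 kb from Mrps10, 10 shared). Clusters of 18 peaks lay on chromosome 13 near Hapln1, which links hyaluronan to proteoglycans in the matrix (89376276 to 89401485, 10 shared), and on chromosome 15 in the desert beside Cdh9 (17596836 to 17615145, 12 shared). In the latter, 6 of the 18 peaks held AGATAA, where 12.8% of all far peaks did. None held the PU.1 or CTCF motif, which 6.50% and 2.60% of all far peaks held, so an absence among 18 peaks says little. These 18 peaks merge to 15 sites, which can repeat a match, and on average 12.9% of their words were repeated. The fifth, with 17 peaks, lay on chromosome 9 near Rplp1 (61664256 to 61681565, 8 shared).

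Far peaks were spread unevenly over the gene-poor stretches. Between neighbouring coding genes, 1898 stretches held far sequence, and 157 of them, with 179 Mb, held 50% of the far peaks of replicate 2, while 783 held none. In 236 stretches with at least 1 Mb of far sequence, the median was 3.98 far peaks per Mb in replicate 2 (10th and 90th percentiles 0 and 19.1) and 22.1 in replicate 1 (6.02 and 73.1). Stretches dense in one list were dense in the other (Pearson r 0.836, Spearman rho 0.875 over 236 stretches, which share the sequence, the cell line and the caller). The stretch with the most far peaks of replicate 2 ran from Nmbr to Cited2 on chromosome 10, with 85 in that list and 247 in replicate 1. Zeb2 to Acvr2a followed with 77 and 231, then St3gal1 to Zfat with 67 and 154, and Diaph2 to Pcdh19 on the X chromosome with 67 and 317. Per Mb, the densest large stretch of replicate 2 was Cetn3 to Mef2c on chromosome 13, at 43 and 104, while in replicate 1 Adam6a to Zfp386 had 158. Zfp608 to Gramd3 had 39.7 and 91.9, St8sia4 to Slco4c1 35.8 and 91.6, Agtr1b to Tbl1xr1 35.8 and 88.1, and Gm6377 to Pou3f4 33.2 and 97.4.

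Other stretches of like size held few peaks or none. No far peak of replicate 2 was called in 31 of the 236, and none of replicate 1 in 11. The Y chromosome held 15 of the 31 and all 11. The 5 named next are the first of those at 0 in replicate 2 when sorted by chromosome name and start, and others of the 31 had fewer peaks in replicate 1. Between Epha7, an ephrin receptor, and Map3k7, a kinase of inflammatory signalling, 2.89 Mb of far sequence on chromosome 4 held 0 peaks in replicate 2 and 35 in replicate 1, with a highest score of 104. Ripk2 to Mmp16 (1.49 Mb) held 0 and 11, Gm21833 to A730009L09Rik (1.49 Mb) 0 and 15, Nrg3 to Sh2d4b (1.18 Mb) 0 and 10, and Ipmk to Zwint (1.05 Mb) 0 and 13. By chromosome, leaving out Y, density in replicate 2 ran from 5.27 far peaks per Mb on chromosome 7 to 19.5 on chromosome 13, and in replicate 1 the same chromosomes were lowest and highest, at 24.1 and 71.0. The Y chromosome had 58 far peaks in 59.5 Mb (0.975 per Mb), and 16 of them were over 50% repeated words.

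**Figure D4:**
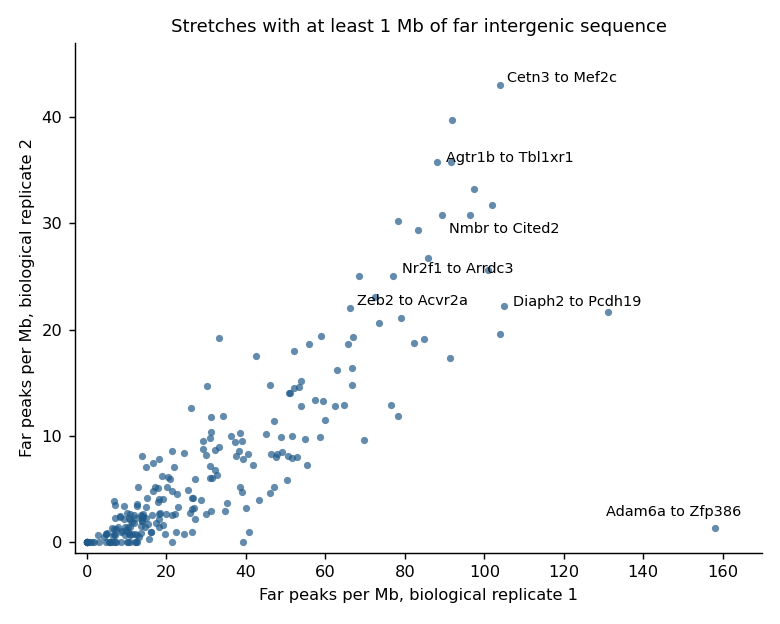
Far peaks per Mb in biological replicate 1 (horizontal) and 2 (vertical) for the 236 stretches between neighbouring coding genes that hold at least 1 Mb of far sequence, 1 point per stretch. Most points rise together (Pearson r 0.836), with Cetn3 to Mef2c highest in replicate 2 at 43, and the stretch from Adam6a to Zfp386 stands apart at 158 and 1.3.

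Some stretches departed from the likeness of the lists. Mageb16 to Tmem47 had 0 far peaks per Mb in replicate 2 and 39.2 in replicate 1, and Bckdhb to Gm11114 had 0.995 and 40.8. From Adam6a to Zfp386 on chromosome 12, replicate 1 had 365 far peaks and replicate 2 had 3. The stretch holds the segments of the immunoglobulin heavy chain, which are assembled by recombination in B cells. Gene segments of antigen receptors are not typed as protein-coding in the annotation, so the rule counts their sequence as intergenic. Across the 217 heavy chain segments (113254830 to 116010093, 2.76 Mb), replicate 1 had 134 far peaks per Mb, above the 41.5 of far sequence as a whole. Their median score was 23, against 43 for its other far peaks, 17.7% sat at the hotspot ceiling, against 50.4%, and 1.36% held the PU.1 motif, against 10.3%. Over 50% of the words were repeated in 12.2% of them, against 5.48% of the others, and 1.09% overlapped a replicate 2 peak. The repeated share was no lower at other antigen receptor loci, at 13.3% in the kappa segments and 18.7% in the T cell receptor alpha and delta segments of replicate 1, where 22.9% and 30.7% of far peaks were shared. At the T cell receptor alpha and delta segments (52427928 to 54224206 on chromosome 14), by contrast, replicate 2 had 48 far peaks and replicate 1 had 150, with 77.1% of the former shared. The immunoglobulin kappa segments on chromosome 6 held 18 and 83. The part of cell content, copy number or read mapping in the heavy chain difference was not tested. Without all peaks within 50 kb of such segments, 8431 far peaks of replicate 2 remained, and 73.1% of them were shared.

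Each far peak was assigned to the protein-coding gene with the nearest start. In all, 1562 of 21904 coding genes (7.13%) were nearest to at least 1 far peak of replicate 2, and 2426 (11.1%) of replicate 1. Only 3020 genes have any far sequence nearest to them. Cdh9, a cadherin of neurons, led with 68 far peaks in replicate 2 (51 shared, 45 over 500 kb away) and 196 in replicate 1. Zeb2, a zinc finger repressor needed in blood progenitors, had 62 (47 shared, median distance 1246 kb) and 184. Cited2, a CBP and p300 binding co-regulator, had 59 (44 shared) and 184. Tbl1xr1, a subunit of the nuclear receptor corepressor complex, had 54 (35 shared) and 159, and Mef2c, a MADS box transcription factor, had 53 (38 shared) and 110. Per Mb of far sequence nearest to each, these 5 genes had 26.2, 35.5, 42.7, 35.5 and 56.3 far peaks in replicate 2, against 10.2 over all far sequence. Zfp608 followed with 48, Diaph2 (a formin) and St3gal1 (a sialyltransferase) with 44 each, Nr2f1 (an orphan nuclear receptor) with 41, and Dad1 with 40. Dad1 lies beside the T cell receptor alpha locus just described. St3gal1 was the densest of the 10, at 99.8 per Mb. The nearest gene on the line of the chromosome need not be the gene a site acts on.

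Genes of blood progenitors and leukaemia were nearest to more far peaks than red cell genes, but they have more far sequence beside them. Per Mb of it the red cell value rests on 5 peaks at 1 gene, so these lists are not ranked by density. In the list of blood progenitor and leukaemia genes 16 of 30 were nearest to at least 1 far peak of replicate 2, where 7.13% of all coding genes were. Only 17 of the 30 have any far sequence nearest to them, as do 3020 of 21904 coding genes, 1562 of them with a far peak. The list had 274 far peaks in all, at 29.9 per Mb of its far sequence (108 in replicate 1). Beside Zeb2 and Mef2c stood Myc, the growth regulator, with 27 far peaks (22 shared, top score 54) and Id2, an inhibitor of E-box proteins, with 20 (14 shared, top score 58). Of 20 erythroid regulators 4 had any, 30 peaks in all and 27.3 per Mb (99.2 in replicate 1). They were Klf3, a repressor of the KLF family, with 17 (10 shared, top score 55), Sox6 with 6, Bcl11a, the fetal globin repressor, with 5, and Foxo3 with 2. Of 22 red cell genes 1 (4.55%, near the share of all genes) had any, the carbonic anhydrase gene Car2 with 5 (4 shared, top score 28, and 111 in replicate 1), which is 33.2 per Mb for the list (119.6 in replicate 1). Only 5 of the erythroid regulators and 2 of the red cell genes have any far sequence nearest to them (1.10 and 0.151 Mb), so these counts speak of where genes lie as well as of peaks.

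Taken as whole lists, developmental, neuronal and zinc genes had densities near or below that of far sequence as a whole. Of 40 developmental transcription factors 22 (55.0%, against 7.13% of all coding genes) had far peaks in replicate 2, 138 in all, at 9.42 per Mb (40 in replicate 1, where 41.5 is the value for all far sequence). The list was drawn up of genes beside gene deserts, and 34 of its 40 genes have far sequence nearest to them, as do 40 of the 42 neuronal genes and 6 of the 29 zinc genes. Nr2f1 led with 41, Dach1 had 21, Sox2 13 and Sox5 10. Of 42 neuronal adhesion genes 28 (66.7%) had 440 far peaks at 8.13 per Mb (40.2 in replicate 1). Cdh9 led here, then Pcdh17 with 33, Cdh18 with 29 and Pcdh19 with 27. Of 29 zinc genes 5 (17.2%) had far peaks, 23 in all at 8.61 per Mb (30.7 in replicate 1). The value of this list leans on 1 gene, Slc39a10, which had 1.90 of its 2.67 Mb of far sequence, at 2.10 per Mb. The transporter gene Slc30a5 had 8 (5 shared, 24.3 per Mb) and Slc39a11 had 5 (70.6 per Mb). Slc30a10 (17.3 per Mb) and Slc39a10 had 4 each. One near Slc39a10, at chr1:48881496-48881645 and 1989 kb from its start, shared the highest score of any gene desert peak, 70 (92 in replicate 1).

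**Figure D5:**
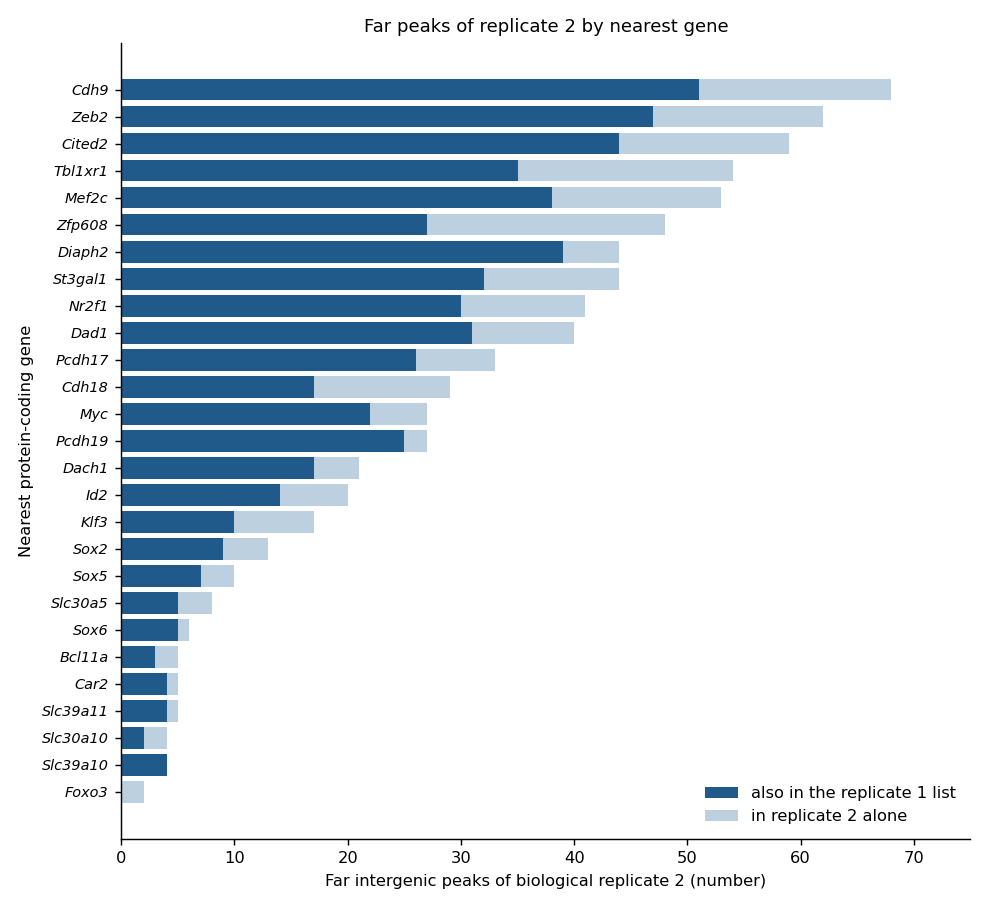
Number of far peaks of replicate 2 (horizontal axis) nearest to each protein-coding gene named in the text; the dark part of a bar counts peaks that overlap a replicate 1 peak and the light part those that do not. Cdh9 has the most, 68, of which 51 are shared, and Foxo3 the fewest of those drawn, 2, of which none is shared.

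The 10 highest-scoring far peaks lay 117 to 264 kb from a coding start, and 3 of them lay inside a long noncoding RNA gene. After the peak near Phlpp1 and one near Vmn1r238 with score 96 (134 in replicate 1), the next were chr14:114946476-114946625, whose sequence is given above, and chr3:8245276-8245425 near Stmn2, both with score 89 (148 and 118 in replicate 1). A second site 2526 bp from the start of Gm31072 had score 84 (140 in replicate 1). A pair near Hs6st1, at chr1:35869796-35869945 and chr1:35869496-35869645, had scores 82 and 79 (149 and 148). The others of the 10 highest lay near Tcte2 (81, and 142 in replicate 1), Pced1b (80 and 141) and Sesn3 (78 and 141, 219 bp from the start of 1700019J19Rik). All 10 sat in hotspots at the ceiling, and all 10 overlapped a replicate 1 peak. The peaks near Vmn1r238 and Stmn2 had 11.8% and 19.3% repeated words and hotspots of 270 and 269 bp, the narrowest of the 10.

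Starts of long noncoding RNA genes accounted for few far peaks, and these had higher scores. Within 1 kb of such a start lay 236 far peaks of replicate 2 (2.77%, against 4.63% of all peaks and 4.55% of nearer intergenic ones). These 236 peaks lay at 123 genes, with median score 32 against 20 elsewhere. Their mean GC content was 47.8%, against 42.7%, and they were shared in 70.3% of cases, against 73.3%. In replicate 1 there were 567 (1.64%, against 2.58% of all its peaks), with median score 60 against 43. There they were shared more often, in 28.0% against 17.3%. By score the leading starts in replicate 2 were those of Gm31072 (89), 1700019J19Rik (78), 2210408F21Rik (76), Gm5165 (73), Gm20756 (67) and Gm35035 (65). The peak at Gm20756 overlapped no replicate 1 peak, and those at the other named starts overlapped peaks with scores of 130 to 148. A larger share of far peaks, 15.8%, lay inside a long noncoding RNA gene body. It was 8.58% of all peaks, 12.6% of nearer intergenic peaks and 5.54% of gene desert peaks.

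In gene deserts high scores were rarer in replicate 2 (90th percentile 34.0, against 42.0 at 100 to 500 kb), although hotspots at the ceiling were more common there, as given above. Behind the pair at score 70 (near Slc39a10, and near Pou3f4 at chrX:110281876-110282025) came a site 1649.7 kb from Cntnap5b with 69 (143 in replicate 1), a second near Pou3f4 with 68 (108) and one near Diaph2 with 67 (124). The farthest peaks of all had low scores. The most distant, 2406 kb from Pcdh20, had score 9 and overlapped a replicate 1 peak with score 40, and 4 others between 2145 and 2221 kb from Pcdh9 or Pcdh17 had scores from 8 to 21. Of these 5, 4 overlapped a replicate 1 peak, and 1 had its hotspot at the ceiling. Leading carriers of other motifs were not always called as peaks in both lists. The best AP-1 carrier, near Rnf152 with score 73, and the best C/EBP carrier in a gene desert, near Pdcd1 with score 41, overlapped no replicate 1 peak, although both lay in a replicate 1 hotspot.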

How the data were processed

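DNase-seq of 3 libraries of MEL cells was analysed, from the authors' deposited lists of peaks and hotspots. The whole-series lists were read as biological replicate 1 (2 libraries together), because the deposited text records of both libraries name the alignment behind them, and the other pair as biological replicate 2. Per the labels, reads were aligned to mm10. Aligner, caller and filters were not named in the labels or headers. The authors deposited a score for each peak, a whole number whose meaning is not stated, and for each hotspot the −log10 of a q value, with a ceiling of 100. Depth is unknown, so no count-based interval exists for a single peak.

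Genes came from GENCODE mouse release 21 and sequence from RefSeq GRCm38 (mm10). Positions are 1-based. Distances run from peak midpoints to the nearest transcript start of a protein-coding gene. Python 3.11.15 with numpy 2.4.6, pandas 2.3.3, scipy 1.17.1 and numba 0.67.0 gave overlaps, 14 motif searches on both strands, flanking windows 1000 bp from each peak edge and free of peaks, and genome-wide counts of 32-base words. Code was tested on simulated data. With 1 list per replicate no test over samples was possible, and shares carry 95% Wilson intervals and differences 95% Newcombe intervals, which cover counting error only. Replicates show only the spread between these lists.

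The members, gene lists and motifs were chosen with earlier results of these data known. Named were the 10 genes nearest to the most far peaks, up to 4 per gene list, the 10 highest-scoring far peaks, the 5 highest and 5 farthest in gene deserts, the best carrier of 7 motifs, the 10 fullest, 5 densest stretches and 5 with none (ties by chromosome name and start), and the 5 largest clusters. The stretches that differ between lists and the other noncoding gene starts were named after their values were seen. The symbol Lphn2 was not matched. A gene of the red cell list and some of the marker genes are not reported here and were left out of the counts. Alternatives covered the score, the distance, the genes counted, the start used and the list.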

Additional observations from a re-analysis of the deposited data

How the results depend on the processing

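Among the 50% of peaks with the highest scores, 2111 were far (3.91% of those peaks, 0.124 times the genome density), 230.0 of them over 500 kb away; 76.5% were shared, 2.13% held CTCF and 15.3% were masked. With a limit of 50 kb there were 14509 (13.7%, 0.343 times, median score 22), with CTCF in 3.01% and 18.9% masked. At 200 kb there were 4476 (4.21%, 0.191 times, median score 18), with 74.1% shared, CTCF in 2.28% and 23.3% masked. When long noncoding RNA genes counted as genes, 4346 peaks (4.09%) were far, and with the start of each gene record alone the share was 8.96%. The list of replicate 1 gave 34585 far peaks (11.4%, 0.362 times, median score 43), 7136 of them over 500 kb away, with 17.5% shared, CTCF in 1.80%, PU.1 in 10.2% and 30.3% masked. Sharing was 53.6% with 50% or more of both peaks overlapping and 90.2% by midpoint in a hotspot. Among shared far peaks CTCF was in 3.53% and PU.1 in 8.16%. Merging overlapping peaks, chosen after seeing the data, gave a median score of 21 and 19.7% masked, and leaving out repeated sequence gave 19.4% masked. The other values stayed within the interval or within 1.5 times of those reported. No paired analysis was possible because the study has 1 group and 1 list per biological replicate, so none could be left out in turn either. Unknown depth, the unstated score and the lack of untreated cells limit what these lists show.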

Other observations

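Far peaks of replicate 1 that no replicate 2 peak overlapped had a median score of 39, against 86 for those that were overlapped. In replicate 2 the gap ran from 18 to 21. The replicate 1 peaks matched to far peaks had lower scores (median 87) than those matched to nearer intergenic peaks (104). Of stretches with at least 1 Mb of far sequence and 0 far peaks in replicate 2, Mageb16 to Tmem47 on the X chromosome had the most in replicate 1, 47 in 1.20 Mb (39.2 per Mb). Far peaks within 1 kb of a microRNA gene numbered 8 of 8505 in replicate 2 and 36 of 34585 in replicate 1. The same share over all peaks was not computed, so nothing is read from these counts.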
